A study of Mus musculus with 18 samples.

Results

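Plpp6 and its relatives Plpp1, Plpp2, Plpp3 and Plpp5 encode lipid phosphatases, and they made up 5 of the 55450 genes in the deposited table of mouse embryonic fibroblasts (MEF). Plpp6 was chosen by its higher counts in MEF cells carrying the CMV-miR-29b plasmid than in cells carrying the empty vector, and the other members were chosen as relatives of Plpp6. The values behind that choice are therefore given below as a description, without a test. Phospholipid phosphatases are membrane enzymes that take a phosphate group off lipids. Plpp1, Plpp2 and Plpp3 act on lysophosphatidic acid, sphingosine 1-phosphate and phosphatidate, and so end the signals that these lipids send through receptors on the cell surface. Plpp5 acts on phosphatidate and diacylglycerol pyrophosphate, while Plpp6 acts on isoprenoid diphosphates such as presqualene diphosphate and farnesyl diphosphate.

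The study asked how a miR-29b plasmid driven by the Col1a1 promoter compares with a plasmid driven by the cytomegalovirus (CMV) promoter in fibroblasts exposed to the fibrotic cytokine TGF-β. Poly(A) RNA was sequenced from 18 libraries in 6 groups of 3. The deposited totals ran from 65898017 to 80332633 counts per library, with a median of 74155860, so that the smallest amount taken as detectable, 3 counts, was worth 0.0373 to 0.0455 CPM, counts scaled by library size. All cells were MEF from a repository, were transfected with a pcDNA3-based plasmid by lipofection, and differed by plasmid and treatment. The groups were empty pcDNA3 vector without TGF-β, empty vector with TGF-β, Col1a1-miR-29b without TGF-β, Col1a1-miR-29b with TGF-β, CMV-miR-29b without TGF-β and CMV-miR-29b with TGF-β. TGF-β was given at 20 ng/ml for 24 h, starting 6 h after transfection, and the other groups received none. Transfection was transient, so transfected and untransfected cells of a well were sequenced together. The miR-29b plasmids also carried fluorescent reporters that the empty vector is not described as carrying, and the Col1a1 promoter is itself active in cells that make collagen. The labels gave 3 replicates, c, d and e, in each group, but 1 column in both Col1a1-miR-29b groups had a letter found in no label, and these libraries are called unlettered here.

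The plasmids carried a human miR-29b-1 insert, whose sequence was not analysed here. The mature mouse miR-29b and the seed that reads its targets are shown because the members were examined for matching sites. This sequence comes from RefSeq (GRCm38.p6, gene Mir29b-1, chr6:31063025-31063047, minus strand), and capitals mark the seed, bases 2 to 8.
mmu-miR-29b-3p: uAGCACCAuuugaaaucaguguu
A full seed match in an mRNA reads TGGTGCT, and its 6-base core reads GGTGCT. Neither run of letters was present in the longest annotated 3′ UTR of Plpp1 (326 bases), Plpp2 (702 bases), Plpp3 (1742 bases), Plpp5 (832 bases) or Plpp6 (1932 bases) in GENCODE M21. Among 21007 genes with a 3′ UTR, whose median length was 961 bases, 13.1% held the 7-base match and 28.3% the 6-base core, so most genes lacked both. Among matrix genes examined for comparison, the full match was at base 919 of the 1423-base 3′ UTR of Col1a1, at base 235 of 959 in Col3a1 and at bases 38, 285 and 298 of 1188 in Eln. The family member Plpp7 held the same letters at bases 214 and 244 of the 1242-base 3′ UTR of transcript Plpp7-203. That transcript is only 1439 bases long, so little of it is annotated as coding. In the other coding transcripts of Plpp7, up to 1947 bases long, these letters may lie outside the 3′ UTR, which was not examined. Capitals mark the matching bases in the sites below.
Col1a1 site: gaaggaatttcTGGTGCTatagaagctg
Col3a1 site: aaatgtctcaaTGGTGCTataataaata
Eln site at base 38: ctcatcaacgtTGGTGCTactgcttggt
Plpp7 site at base 214: cctgagccaccTGGTGCTggcggtgcca
Plpp7 site at base 244: gcgcgtgctgcTGGTGCTctgggccttc
A match is a run of letters and not a measured site, and its absence says only that these letters were not in the window.

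Counts assigned to Mir29b-1 followed the plasmids. They were 0 in all 6 empty vector libraries, 0, 1 and 1 in untreated Col1a1-miR-29b cells, and 4, 2 and 6 in treated ones. In CMV-miR-29b cells the untreated libraries had 110, 115 and 309 and the treated libraries 214, 203 and 293. These poly(A) libraries count long transcripts that contain the hairpin and do not measure the mature microRNA. TGF-β treatment was also visible in its usual target genes. Averaged over the 3 vectors, the log2 fold change was 1.75 ± 0.0835 (SE) for Acta2, a smooth muscle actin of myofibroblasts, and 1.14 ± 0.0462 for Col1a1 (adjusted p of edgeR's quasi-likelihood test, 4.89e-10 and 8.25e-11). Against the empty vector, both with TGF-β, Col1a1-miR-29b cells had lower Col1a1 (-0.46, adjusted p of edgeR 2.12e-03) and Col3a1 (-0.87, adjusted p of edgeR 4.49e-04). In CMV-miR-29b cells Col1a1 (-0.37 ± 0.0791) and Col3a1 (-0.65 ± 0.109) were also lower but did not pass the threshold in the same setting (adjusted p of edgeR 0.124 and 0.0559). In that contrast edgeR called only 2 of 21161 genes, and DESeq2 called 288. Whether these 2 collagen genes passed by DESeq2 was not examined here. The paper, which used DESeq2, reports collagen genes inhibited by the CMV plasmid as well. Acta2 differed by -0.06 in Col1a1-miR-29b cells (adjusted p of edgeR 0.856), or 0.03 without replicate d of the treated empty vector, and Eln had 0 to 20 counts, with 0 in 11 of 18 libraries.

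Marker genes matched fibroblasts in most respects. Of 6 fibroblast markers 5 were above 10 CPM, with Col1a1 the most abundant at 1430 CPM, while Thy1, which not all fibroblasts carry, had 0 to 8 counts. The 4 epithelial markers summed to 0.0509 to 0.964 CPM, with Cdh1 highest at 0.306 CPM. Of the 3 immune markers Cd68 was at 11.3 CPM, but Ptprc and Adgre1, which define leukocytes and macrophages, reached no more than 25 and 4 counts. Markers of other cell types moved with TGF-β. The 3 neural markers (Tubb3 at 43.5 CPM, Map2 at 0.767 CPM, and Sox2 at 0 in every library) summed to 39.2, 31.5 and 32.5 CPM in empty vector cells, 35.4, 34.4 and 29.9 in Col1a1-miR-29b cells and 33.7, 38.9 and 33.1 in CMV-miR-29b cells without TGF-β. With TGF-β the neural sums were 57.5, 56.7 and 61.6, then 52, 54.2 and 50.7, then 52, 51.8 and 52.2 CPM. The 3 endothelial markers, of which Cdh5 was highest at 1.11 CPM, summed to 0.699 to 1.65 CPM without TGF-β and 2.03 to 3.03 CPM with it. What part these cells or transcripts have in the TGF-β results below was not tested, and in bulk samples fewer cells of a type and less RNA per cell cannot be told apart.

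All 5 members passed the filter on low counts that left 21161 genes for testing. Per length, as FPKM, fragments per length and library size, over the 16 libraries with a usable FPKM column, Plpp2 had the highest median level (14.3, range 7.42 to 18.9), followed by Plpp1 (9.95, range 8.01 to 11.3), Plpp5 (6.85, range 5.80 to 16.5) and Plpp6 (6.05, range 4.75 to 10.1). Plpp3 was near the limit of detection, at a median of 0.032 FPKM. The ranges of Plpp2 and Plpp1, of Plpp1 and Plpp5, and of Plpp5 and Plpp6 overlapped. The deposited FPKM imply lengths of 1958 bases for Plpp1 and 3953 for Plpp5, against longest annotated transcripts of 1598 and 2115. The order of Plpp1 and Plpp5 therefore depends on the length taken.

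Plpp6, the isoprenoid diphosphate phosphatase, is ENSMUSG00000040105 at chr19:28963953-28966811 on the plus strand of GRCm38. Its annotation holds 1 transcript of 1 exon and 2859 bases. Without TGF-β it had 1421, 1553 and 1463 counts in empty vector cells, 1626, 1607 and 1633 counts in Col1a1-miR-29b cells and 1340, 1468 and 1620 counts in CMV-miR-29b cells. With TGF-β it had 1115, 1331 and 1323 counts in empty vector cells, 1514, 1176 and 1317 counts in Col1a1-miR-29b cells and 2213, 2002 and 2347 counts in CMV-miR-29b cells. Thus the 3 libraries that had both the CMV plasmid and TGF-β stood above all others, and the CMV plasmid without TGF-β stayed within the range of the empty vector and Col1a1-miR-29b libraries. Scaled to library size, the order of the group means was CMV-miR-29b with TGF-β (31.0 ± 1.11 CPM, SD, n = 3), Col1a1-miR-29b without TGF-β (22.0 ± 0.849), CMV-miR-29b without TGF-β (19.1 ± 2.03), empty vector without TGF-β (18.6 ± 0.814), Col1a1-miR-29b with TGF-β (18.4 ± 2.26) and empty vector with TGF-β (17.0 ± 1.26). Only the highest group was clear of its neighbour, since its lowest library was at 30.2 CPM and the next group reached 22.7 CPM, and every later pair of neighbours overlapped. The share of all genes whose groups stand clear of each other was not counted, here or for the separations given below.

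**Figure D1:**
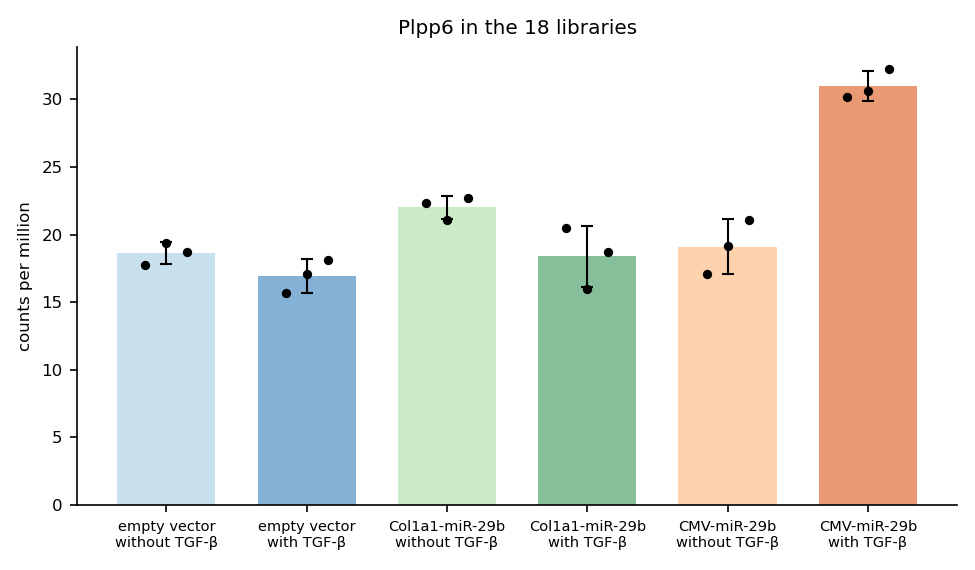
Plpp6 in CPM (vertical axis) in the 6 groups of plasmid and treatment; bars are group means, error bars SD and points the 3 libraries of each group. The CMV-miR-29b libraries with TGF-β lie between 30.2 and 32.3, above every other library.

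Against the empty vector, both with TGF-β, the log2 fold change of Plpp6 in CMV-miR-29b cells was 0.87 ± 0.0946 (SE), or 1.83-fold, and without TGF-β it was 0.04 ± 0.094. These values chose the gene and carry no test. Over all genes, edgeR's quasi-likelihood test with Benjamini-Hochberg adjustment at 0.05 called 0.00945% (2 of 21161) with TGF-β and 0.00473% (1 of 21161) without it. Leaving out replicate d of the treated empty vector raised the number with TGF-β to 160, and over the other single libraries it was 2 to 11. Without TGF-β it was 1 to 5, highest without replicate d of the untreated empty vector. At an unadjusted p under 0.05 the numbers were 2531 with and 1156 without TGF-β, and DESeq2 called 288 and 42 genes after adjustment. The remaining members had log2 fold changes in the same contrast with TGF-β of 0.13 ± 0.0865 (Plpp1), -0.40 ± 0.288 (Plpp2) and 0.04 ± 0.338 (Plpp5), and Plpp3, near 0 counts, had -0.36 ± 1.42. Like the values of Plpp6 these share the empty vector libraries and are given without a test.

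The CMV-miR-29b libraries also enter the comparison with Col1a1-miR-29b cells, which asks whether the promoter matters, so Plpp6 is described there without a test. Its log2 fold change, CMV-miR-29b over Col1a1-miR-29b, was 0.75 ± 0.0944 with TGF-β (1.69-fold) and -0.21 ± 0.094 without it. The value without TGF-β was -0.275 to -0.13 over single libraries left out. Of the 4 other members, edgeR called 0 in either setting, where it called 1.93% of all genes with TGF-β and 1.81% without it. DESeq2 called 0 of these members as well. At an unadjusted p under 0.05 there were 0 with TGF-β, where 15.6% of all genes were, and 1 without it, Plpp5 (0.90 ± 0.34, adjusted p of edgeR 0.191), where 16.4% were. Without replicate d of untreated Col1a1-miR-29b the value of Plpp5 was 1.44 (adjusted p of edgeR 0.0733). The number of genes called by edgeR depended on the setting, at 48 with and 18 without TGF-β when only the groups compared were fitted, and DESeq2 called 1133 and 1224. It also depended on single libraries, from 408 to 40 without replicate d of treated CMV-miR-29b cells, and from 382 in untreated cells to 61 without replicate c of CMV-miR-29b and 646 without replicate d of the treated empty vector.

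Plpp6 in Col1a1-miR-29b cells is described against the empty vector without a test as well, because the empty vector libraries entered the values that chose the gene. Without TGF-β all 3 Col1a1-miR-29b libraries (21.1 to 22.7 CPM) were above all 3 empty vector libraries (17.8 to 19.4 CPM), with a log2 fold change of 0.24 ± 0.094. With TGF-β the groups overlapped and the log2 fold change was 0.12 ± 0.0942, or 0.0307 to 0.202 over single libraries left out, lowest without replicate c and highest without replicate d of treated Col1a1-miR-29b. Of the 4 other members edgeR called 0 in either setting, against 6.27% of all genes without TGF-β and 12.9% with it. None of these members had an unadjusted p under 0.05 in either setting, where 21.5% and 26.1% of all genes did, and DESeq2 called 0. The genes called fell from 1327 to as few as 468 without replicate c of the untreated empty vector, and from 2738 to as few as 1291 without replicate e of the treated empty vector. Over all genes DESeq2 called 2398 without and 3537 with TGF-β. With only the groups compared, edgeR called 782 without and 1072 with TGF-β.

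The values of Plpp6 with and without TGF-β are given for each plasmid, as in the plot of log2 fold changes. With the empty vector the log2 fold change of Plpp6 was -0.13 ± 0.0941, given without a test, and the libraries overlapped. Over single libraries left out it was -0.196 to -0.0828. In Col1a1-miR-29b cells every treated library was below every untreated library, by -0.26 ± 0.0941 on the log2 scale. The 6 Col1a1-miR-29b libraries, which did not enter the choice, were therefore also fitted alone, and there Plpp6 had -0.26 ± 0.102 and missed the threshold over 19202 genes (adjusted p of edgeR 0.286). In the fit of all libraries the value was -0.17 without replicate d of treated Col1a1-miR-29b. In CMV-miR-29b cells every treated library was above every untreated library, by 0.70 ± 0.0943, a value given without a test. The difference in TGF-β response between CMV-miR-29b and empty vector cells was 0.83 ± 0.133 and likewise carries no test, because it rests on the libraries that chose the gene. Between Col1a1-miR-29b and empty vector cells the response of Plpp6 differed by -0.13 ± 0.133, also without a test. Over single libraries left out this difference was -0.203 to -0.0243.

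**Figure D2:**
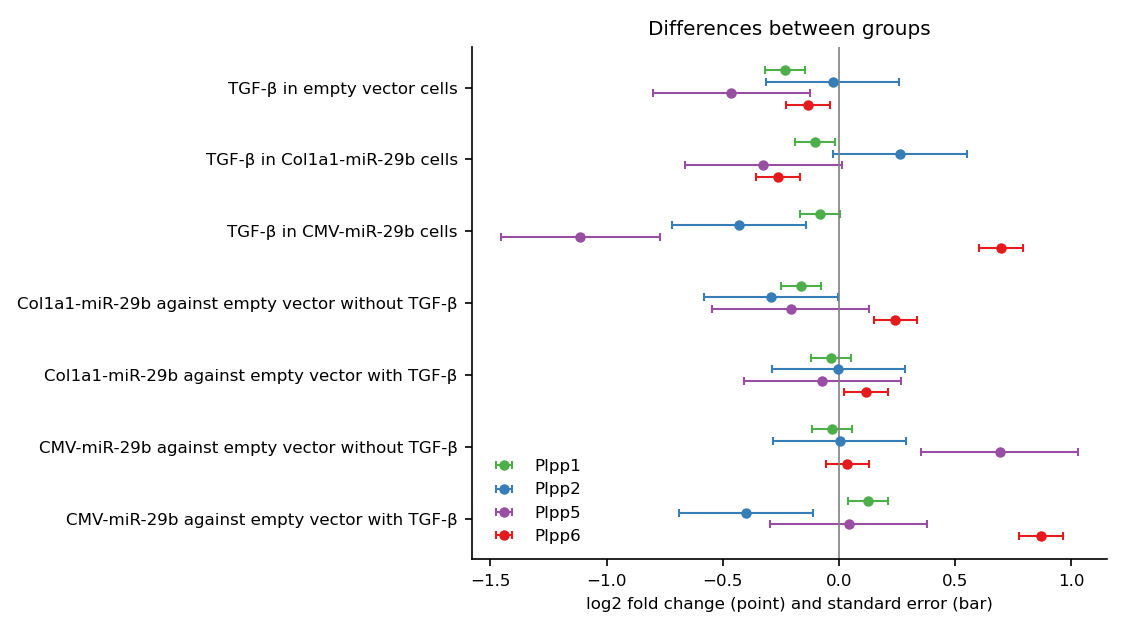
Log2 fold changes (horizontal axis, points) with standard errors (bars) of Plpp1, Plpp2, Plpp5 and Plpp6 in 7 comparisons, 3 libraries per group. Plpp6 lies at 0.70 for TGF-β in CMV-miR-29b cells and at 0.87 for CMV-miR-29b against empty vector with TGF-β, and Plpp5 at -1.11 for TGF-β in CMV-miR-29b cells; Plpp3 is left out because its counts were near 0.

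The gene lies wholly within 4430402I18Rik, which runs on the opposite strand. A stranded kit was used, but whether counting used the strand is not stated, so reads of these overlapping genes may not be told apart. The antisense gene had 0 to 63 counts per library, against at least 1115 for Plpp6, and 32, 20 and 8 counts in CMV-miR-29b cells with TGF-β. Within 100 kb of Plpp6 lay 7 genes, of which 6 were tested, and none was among the 2 of 21161 genes called for CMV-miR-29b against the empty vector with TGF-β, a share too small to tell these neighbours from other genes. There the nearest well-expressed neighbours had log2 fold changes of 0.13 ± 0.0668 (Cdc37l1, a co-chaperone, 7436 to 9800 counts) and -0.17 ± 0.0691 (Ak3, a mitochondrial adenylate kinase, 3333 to 5279 counts). Gm10136, with 434 to 928 counts, had 0.59 ± 0.194.

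By Pearson correlation of log2 CPM over the 18 libraries among 13911 genes, the genes most like Plpp6 were Gm10268 (0.818), Gm13231 (0.796), Tapt1 (0.789), Gm8319 (0.774) and AC166779 (0.731). All but Tapt1 are processed pseudogenes, whose reads may be shared with near-identical copies elsewhere. Tapt1 had 4780 to 5585 counts. Gm8319 varied widely in treated CMV-miR-29b cells, at 159 to 747 counts (5.16 ± 4.45 CPM, SD). Plpp6 was chosen by its level in CMV-miR-29b cells, so a high level there is built into likeness to it. Over the same 18 libraries, which share groups, the correlation with Plpp6 was 0.206 for Plpp1, -0.425 for Plpp2 and -0.124 for Plpp5, and Plpp3 was left out for its low counts.

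Plpp5, the phosphatase of phosphatidate and diacylglycerol pyrophosphate, is ENSMUSG00000031570 at chr8:25720037-25724887 on the plus strand of GRCm38, with 15 annotated transcripts of which 3 are coding. Without TGF-β it had 2088, 5123 and 1780 counts in empty vector cells, 1653, 4011 and 1606 counts in Col1a1-miR-29b cells and 4722, 4949 and 4423 counts in CMV-miR-29b cells. With TGF-β it had 1917, 2322 and 1823 counts in empty vector cells, 1971, 1988 and 1703 counts in Col1a1-miR-29b cells and 1978, 1778 and 2192 counts in CMV-miR-29b cells. The libraries fell into 2 levels with none between 2322 and 4011 counts, a feature noticed after the values were seen. Such a gap was not particular to Plpp5. Its relative Plppr2 had 1566 and 1331 counts in replicate d of untreated and replicate e of treated empty vector cells. It had 1524 in the unlettered library of treated Col1a1-miR-29b cells, and 611 to 862 in every other library. How many genes show such gaps was not counted. The high level of Plpp5 held all 3 CMV-miR-29b libraries without TGF-β and replicate d of the empty vector and of Col1a1-miR-29b without TGF-β, and every library with TGF-β was at the low level. The order of the group means was CMV-miR-29b without TGF-β (60.8 ± 3.49 CPM, SD, n = 3), empty vector without TGF-β (37.6 ± 22.9), Col1a1-miR-29b without TGF-β (32.6 ± 17.4), then CMV-miR-29b (28.1 ± 1.77), empty vector (27.3 ± 2.45) and Col1a1-miR-29b (26.0 ± 1.55) with TGF-β. Each of these groups overlapped the next in the order.

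With TGF-β, the mean log2 fold change of Plpp5 over the 3 vectors was -0.63 ± 0.196, which passed the threshold over all genes (adjusted p of edgeR 0.0418). It was the member called among 4 tested in that comparison, where edgeR called 13.7% of all genes, 7.83% higher and 5.86% lower. With scaling by total counts the genes called numbered 3023, of which 1415 were higher, in place of 1656 of 2897. By an exact permutation of the treatment label within each vector (18 libraries, 8000 arrangements, two-sided, smallest p allowed 2.5e-04), Plpp5 had a mean difference of -0.54 in log2 CPM and p = 0.025. The single vectors gave -1.11 ± 0.341 in CMV-miR-29b cells, where all treated libraries were below all untreated ones (adjusted p of edgeR 0.0827), -0.46 ± 0.338 with the empty vector (0.573) and -0.33 ± 0.338 with Col1a1-miR-29b (0.781). When the CMV-miR-29b groups were fitted alone, the value in these cells passed the threshold (adjusted p of edgeR 7.43e-04). The difference in response between CMV-miR-29b and empty vector cells, -0.65 ± 0.478, was not past the threshold (adjusted p of edgeR 0.944). The call on the average held in 11 of 30 other settings, over which its adjusted p reached 0.148. Among single libraries left out, the call held only without replicate c or e of the untreated empty vector or replicate c or the unlettered library of untreated Col1a1-miR-29b, and for each of the 14 others the adjusted p of edgeR was 0.0525 to 0.0848. Without replicate d of the untreated empty vector it was -0.43 (adjusted p of edgeR 0.0682), with the value in empty vector cells at 0.15. Without replicate d of untreated Col1a1-miR-29b cells the average was -0.46 (adjusted p of edgeR 0.0848), the value in Col1a1-miR-29b cells was 0.21, and the difference in CMV-miR-29b cells passed the threshold (adjusted p of edgeR 0.0282, and 0.0137 without the empty vector library). The exact permutation p was 0.051 and 0.0518 without these libraries and 0.0505 without replicate d of untreated CMV-miR-29b cells.

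Plpp1, a surface phosphatase of lysophosphatidic acid and related lipids, is ENSMUSG00000021759 at chr13:112800792-112867894 on the plus strand and overlaps Mtrex, on the minus strand, by 477 bases. In empty vector cells it had 1648, 1598 and 1709 counts without TGF-β and 1234, 1405 and 1292 counts with it. Over all libraries it ranged from 1158 to 1711 counts, the narrowest relative range among the members. In CPM the treated and untreated empty vector libraries did not overlap (20.8 ± 0.975 without and 17.7 ± 0.375 with TGF-β, SD, n = 3), while those of both miR-29b plasmids did. The log2 fold change with TGF-β was -0.23 ± 0.0864 in empty vector cells (adjusted p of edgeR 0.155), -0.10 ± 0.0865 with Col1a1-miR-29b, and CMV-miR-29b cells had -0.08 ± 0.0864. On the average of the vectors, -0.14 ± 0.0499, Plpp1 missed the threshold over all genes (adjusted p of edgeR 0.0846), although the exact permutation within vectors gave p = 0.0138 for Plpp1 alone. With DESeq2 or with scaling by total counts the adjusted p was 0.0462, in 4 of 30 other settings it was under 0.05, and among single left-out libraries it was 0.0198 without replicate c of treated Col1a1-miR-29b and 0.0436 without replicate d of untreated CMV-miR-29b cells. Of the group means, empty vector without TGF-β was highest and treated Col1a1-miR-29b lowest (17.3 ± 2.03 CPM), and each group overlapped the next.

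Plpp2, which shares substrates with Plpp1, is ENSMUSG00000052151 at chr10:79526430-79533796 on the minus strand. It varied more within groups than between them. In empty vector cells it had 2359, 2463 and 2052 counts without TGF-β and 2565, 2413 and 1300 with it, and in CMV-miR-29b cells 2633, 1952 and 2128 without and 1752, 903 and 1936 with TGF-β. The Col1a1-miR-29b libraries had 1873, 1073 and 2217 counts without and 2154, 1802 and 2188 with TGF-β. The group means ran from 21.4 ± 6.75 CPM in CMV-miR-29b cells with TGF-β to 28.9 ± 4.16 CPM in CMV-miR-29b cells without it, and all neighbours in the order overlapped. The lowest adjusted p of edgeR over its 10 tested comparisons was 0.554, and the exact permutation tests gave p = 0.723 for TGF-β and p = 0.525 for Col1a1-miR-29b.

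Plpp3, a surface phosphatase known from vessel and embryo development, is ENSMUSG00000028517 at chr4:105157347-105232764 on the plus strand. It had 0 to 30 counts per library, with 0 in 5 of 18. Without TGF-β the counts were 4, 0 and 0 in empty vector cells, 0, 23 and 17 in Col1a1-miR-29b cells and 15, 0 and 10 in CMV-miR-29b cells. With TGF-β they were 12, 12 and 22, then 0, 13 and 30, then 23, 4 and 8. Treated empty vector cells had more counts than untreated ones in each library, with a log2 fold change of 3.51 ± 1.69 that missed the threshold (adjusted p of edgeR 0.309). The lowest adjusted p of edgeR over its 10 tested comparisons was 0.281.

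**Figure D3:**
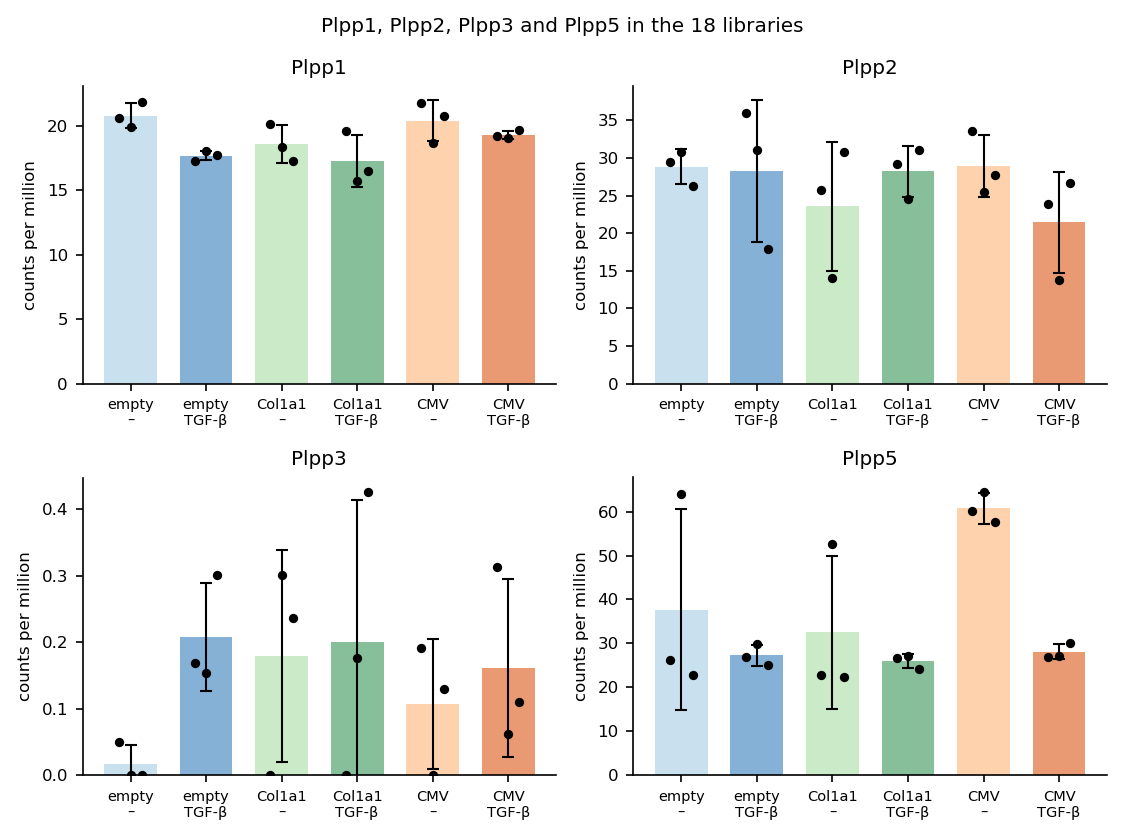
CPM (vertical axes, each starting at 0) of Plpp1, Plpp2, Plpp3 and Plpp5 in the 6 groups; bars are means, error bars SD and points the 3 libraries of each group, with a dash for groups without TGF-β. In untreated empty vector and Col1a1-miR-29b cells 1 library each, at 63.9 and 52.6, stands apart for Plpp5, and Plpp3 stays under 0.5.

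Counted over the members, TGF-β gave 0 calls among 4 in empty vector cells (5.88% of all genes called by edgeR), 0 among 4 in Col1a1-miR-29b cells (4.32%) and 0 among 4 in CMV-miR-29b cells (4.95%), with Plpp6 left out of each count. At an unadjusted p under 0.05 there were 1 (Plpp1), 0 and 1 (Plpp5) in that order, against 17%, 14.3% and 15.6% of all genes, and DESeq2 called 0 members in each. Without replicate e of the treated empty vector the genes called in empty vector cells were 725 in place of 1245. With only the groups compared, edgeR called 618 genes in empty vector, 719 in Col1a1-miR-29b and 527 in CMV-miR-29b cells. In that setting Plpp5 was called in CMV-miR-29b cells (adjusted p of edgeR 7.43e-04). The difference in TGF-β response was called for 0 of 4 members both between Col1a1-miR-29b and empty vector cells and between CMV-miR-29b and empty vector cells, with 0% of all genes called by edgeR in both. At an unadjusted p under 0.05 these differences held 961 and 1129 genes and 0 members, and DESeq2 called 24 and 21 genes and 0 members. All comparisons with the empty vector share its libraries. In all, 8 permutation tests were made over the members, without adjustment, and the others not given above were p = 0.135 (Plpp1), 0.46 (Plpp5) and 0.61 (Plpp3) for Col1a1-miR-29b, with the plasmid label permuted within each treatment (12 libraries, 400 arrangements, two-sided, smallest p allowed 5e-03), and 0.14 (Plpp3) for TGF-β, each by exact permutation.

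The wider PAP2 superfamily, which shares the catalytic fold of the members, held 16 other genes, of which 10 passed the filter. Plpp4, Plppr4, Plppr5 and G6pc had 0 counts in every library, below the floor of 3 counts, and Plpp7, the family member with the seed matches printed above, had 26 to 78. By contrast, the sphingosine 1-phosphate phosphatase Sgpp1 (4417 to 6574 counts) and Samd8 (6273 to 8078 counts) were abundant. With TGF-β, averaged over the 3 vectors, 1 of these 10 genes rose and 2 fell, against 7.83% and 5.86% of all genes, with a median log2 fold change of 0.00975 against -0.00539 over all genes. The genes that fell were Sgms2, a sphingomyelin synthase (-0.34 ± 0.0403, adjusted p of edgeR 1.59e-05), and Sgpp1 (-0.16 ± 0.03, adjusted p of edgeR 1.59e-03). Sgpp2, named after its values were seen because it averaged 0.655 CPM, had 0.65 ± 0.186 (adjusted p of edgeR 0.0283), a call that held in 17 of 30 other settings. It was lost with the replicate letter as a block (adjusted p of edgeR 0.107) and without the 2 unlettered libraries (0.0856). The filter at 1 count in any library gave an adjusted p of edgeR of 0.0507. The adjusted p of limma was 0.123 on log2(FPKM + 1) and 0.0732 on log2(FPKM + 0.1). The adjusted p of edgeR for Sgpp2 was 0.0608 and 0.0691 without replicate e of the untreated and treated empty vector, 0.0514, 0.0606 and 0.0695 without replicates c and d of untreated and the unlettered library of treated Col1a1-miR-29b, and 0.0525, 0.0606 and 0.0559 without replicates d and e of untreated and c of treated CMV-miR-29b. For Col1a1-miR-29b against the empty vector with TGF-β, edgeR and DESeq2 called 0 of the 10, against 12.9% of all genes by edgeR, 2 had an unadjusted p under 0.05, against 26.1%, and the median was -0.03 against 0.019 over all genes.

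Genes of lysophosphatidic acid and sphingosine 1-phosphate signalling, the substrates of Plpp1, Plpp2 and Plpp3, were 19, with 17 tested, including Sgpp1 and Sgpp2 of the list above. With TGF-β 3 rose and 3 fell, against 7.83% and 5.86% of all genes (median 0.03 on the log2 scale, -0.00539 over all genes). Enpp2, the autotaxin that makes lysophosphatidic acid, fell by 1.73 on the log2 scale (SE 0.113, adjusted p of edgeR 2.02e-08), while Sphk1, which makes sphingosine 1-phosphate, rose by 0.84 (SE 0.196, adjusted p of edgeR 8.11e-03) and the receptor gene Lpar1 by 0.29 (SE 0.0721, adjusted p of edgeR 0.013). For Col1a1-miR-29b against the empty vector with TGF-β 2 were higher and 0 lower by edgeR, where 6 of the 17 had an unadjusted p under 0.05, against 26.1% of all genes, and DESeq2 called 2 in each direction (median 0.08, 0.019 over all genes). Over all genes in that comparison edgeR called 5.31% higher and 7.63% lower, and with scaling by total counts 1469 of 2792 calls were higher in place of 1123 of 2738. The receptor genes Lpar6 (0.73 ± 0.128, adjusted p of edgeR 2.24e-03) and S1pr1 (0.39 ± 0.121, adjusted p of edgeR 0.044) were the higher ones, and the S1pr1 call held in 10 of 30 other settings, with an adjusted p up to 0.187 without the unlettered library of treated Col1a1-miR-29b.

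Phosphatidate and diacylglycerol metabolism, the substrates and products of Plpp1 and Plpp5, was followed in 28 genes, 23 of them tested. With TGF-β 4 rose and 3 fell, against 7.83% and 5.86% of all genes (median -0.00783, -0.00539 over all genes). Lpin1, another phosphatidate phosphatase, fell by 0.49 (SE 0.0442, adjusted p of edgeR 9.49e-07), as did Dgat2, which makes triglyceride from diacylglycerol (-0.43 ± 0.0605, adjusted p of edgeR 1.04e-04), and Gpat3, a glycerol 3-phosphate acyltransferase, rose by 0.30 (SE 0.0392, adjusted p of edgeR 5.43e-05). Lpin3, also a phosphatidate phosphatase and named after its values were seen because it averaged 0.878 CPM, rose by 1.79 (SE 0.316, adjusted p of edgeR 8.68e-04). For Col1a1-miR-29b against the empty vector with TGF-β 1 was higher and 8 were lower, against 5.31% and 7.63% of all genes, with a median of -0.18 against 0.019. Pld1, a phospholipase that makes phosphatidate (-0.76 ± 0.148, adjusted p of edgeR 4.04e-03), and the diacylglycerol kinase Dgka (-0.56 ± 0.0933, adjusted p of edgeR 1.67e-03) were lower, and Dgat2 was higher (0.59 ± 0.105, adjusted p of edgeR 2.36e-03). With scaling by total counts the same list had 3 higher and 5 lower, with only the groups compared 2 and 3, and with DESeq2 3 and 10. Without replicate e of the treated empty vector, or without replicate c of treated Col1a1-miR-29b, 4 were lower.

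Isoprenoid diphosphate metabolism, which makes and uses the substrates of Plpp6, was followed in 23 genes, all tested. The list includes steps after these diphosphates, among them Lss, Sqle and Fntb. With TGF-β 0 rose and 10 fell by edgeR, against 7.83% and 5.86% of all genes, with a median of -0.06 against -0.00539. An unadjusted p under 0.05 was found for 11, against 24.7% of all genes, and DESeq2 called 0 higher and 11 lower. Lss, a synthase of lanosterol (-0.68 ± 0.11, adjusted p of edgeR 3.97e-04), Idi1, an isomerase of isopentenyl diphosphate (-0.62 ± 0.146, adjusted p of edgeR 8.55e-03), and Hmgcs1, an early enzyme of the mevalonate pathway (-0.61 ± 0.141, adjusted p of edgeR 7.63e-03), changed most, and the calls of Idi1 and Hmgcs1 held in 27 and 28 of 30 other settings. For Col1a1-miR-29b against the empty vector with TGF-β 1 was higher and 4 were lower, against 5.31% and 7.63% of all genes (median -0.07, 0.019 over all genes). The number higher was 0 without replicate c or e of the treated empty vector or replicate c or the unlettered library of treated Col1a1-miR-29b, and 3 without replicate d of the treated empty vector or of untreated CMV-miR-29b cells. The lower ones included Fdps, the synthase of farnesyl diphosphate (-0.32 ± 0.0457, adjusted p of edgeR 8.45e-04), Sqle, an epoxidase of squalene (-0.47 ± 0.103, adjusted p of edgeR 7.4e-03), and Fntb, a subunit of farnesyltransferase (-0.49 ± 0.15, adjusted p of edgeR 0.0438, a call that held in 13 of 30 other settings, and 0.216 without replicate e of the treated empty vector). In CMV-miR-29b cells against the empty vector with TGF-β, the contrast in which Plpp6 was highest, edgeR called 0 genes of each of the 4 lists, but only 2 of 21161 genes in all. At an unadjusted p under 0.05 there were 1 of 10, 4 of 17, 2 of 23 and 2 of 23 in the order above, against 12% of all genes.

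**Figure D4:**
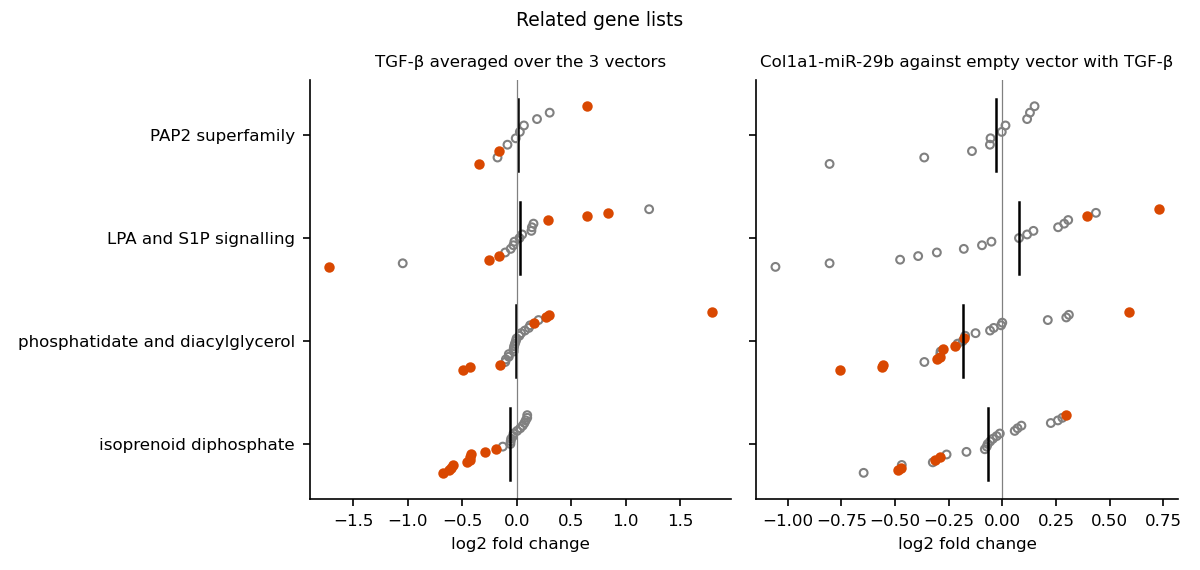
Log2 fold changes (horizontal axes) of the tested genes of 4 lists for TGF-β averaged over the 3 vectors (left) and for Col1a1-miR-29b against the empty vector with TGF-β (right); each point is a gene, filled where its adjusted p was under 0.05, and vertical bars are list medians. In the left panel the 10 filled isoprenoid genes all lie below 0.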

How the data were processed

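Per the labels, poly(A) RNA was prepared with a stranded TruSeq kit, and the submitters' processing notes name cutadapt, FastQC, HISAT2 and StringTie. The authors deposited whole-number counts per gene, and how counts were taken is not stated. The authors deposited FPKM (from DESeq2 by the study's methods) beside them, with 0 written as 1e-04. The labels name mm9 and the methods Ensembl release 96, but 52543 of 55450 gene coordinates equal those of GENCODE M21 (GRCm38), whose coordinates and 3′ UTRs were used. Groups came from the sample titles. The Col1a1-miR-29b count columns with an unmatched letter were used as replicates without a letter, and 2 per-sample columns, their FPKM, were not used.

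Counts were tested with edgeR 4.0.16 in R 4.3.3 (TMM, filterByExpr, quasi-likelihood F test, two-sided, all 18 libraries in a fit of 6 group means, Benjamini-Hochberg over 21161 genes, threshold 0.05). Exact permutation tests used log2 CPM. Figures were drawn with matplotlib 3.10.9 in Python 3.11.15. The code was tested on simulated data. Alternatives were DESeq2 1.42.0, RLE or total-count scaling, a filter at 1 count in any or 10 in every library, only the groups compared, a replicate block, each library left out, no unlettered libraries, limma 3.58.1 on FPKM in log2 after adding 1 or 0.1, counts divided by 4 and robust dispersions.

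Members and lists were chosen with earlier results of these data known. A gene of the label checks is not reported here. By rule, the genes named were the members, label checks, markers, neighbours within 100 kb and the 5 genes most like Plpp6. From each list up to 3 called genes with the largest log2 fold change and a mean of at least 1 CPM were added. Outside this rule, Sgpp2 and Lpin3 were named after their values were seen. Mtrex, the 5 genes most like Plpp3, and Samd8, Plpp4, Plpp7, Plppr2, Plppr4, Plppr5 and G6pc of the PAP2 superfamily were also named. No p is given for any member in CMV-miR-29b against the empty vector, or for Plpp6 from any fit that includes the CMV-miR-29b or empty vector libraries, all of which entered its choice. Its only p is from the Col1a1-miR-29b libraries fitted alone. The study describes 3 repeated experiments per group, and the labels do not say whether replicates were separate cultures, so p-values measure the spread between these libraries. The floor of 3 counts covers counting error only.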

Additional observations from a re-analysis of the deposited data

Results flagged for a closer look

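The libraries of Plpp6 with and without TGF-β separated in opposite directions under the miR-29b plasmids. Every treated CMV-miR-29b library was above every untreated one, every treated Col1a1-miR-29b library was below every untreated one, and the empty vector libraries overlapped. The share of all genes that separate in this way was not counted, so how unusual the pattern is remains unknown. The lower level in Col1a1-miR-29b cells, -0.26 on the log2 scale, did not pass the threshold when these libraries were fitted alone (adjusted p of edgeR 0.286), and in the fit of all libraries, with single libraries left out, it was -0.345 to -0.167, smallest without replicate d of the treated cells. The response in CMV-miR-29b cells exceeded that in empty vector cells by 0.832 on the log2 scale. This difference was not tested, because Plpp6 was chosen by the CMV-miR-29b libraries.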

How the results depend on the processing

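The number of members past the threshold changed in 2 comparisons. For TGF-β averaged over the 3 vectors it was 1 (Plpp5), and it became 2 (with Plpp1) under DESeq2 and under scaling by total counts, and 0 with the filter at 1 count in any library, without the 2 unlettered libraries, with limma on log2(FPKM + 1) or log2(FPKM + 0.1), and with robust dispersions. Leaving out single libraries gave 0 to 1 there, and 0 to 1 for TGF-β in CMV-miR-29b cells, which had 1 (Plpp5, adjusted p 7.43e-04) when its groups were fitted alone. The causes were not tested. The other 8 counts stayed at 0.

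Plpp5 changed direction with TGF-β in empty vector cells, to 0.149 without replicate d of the untreated cells (range over left-out libraries -0.733 to 0.149), and in Col1a1-miR-29b cells, to 0.209 without replicate d of the untreated cells (-0.544 to 0.209). Acta2 in Col1a1-miR-29b against the empty vector with TGF-β became 0.0345 without replicate d of the treated empty vector (-0.11 to 0.0345). The log2 fold change of Plpp6 in CMV-miR-29b against the empty vector with TGF-β stayed within 0.812 to 0.923 over left-out libraries and 0.791 to 0.901 over other settings. Of the alternative values of the member results reported, 585 kept direction with no change of call, and 2, both of Plpp5, changed direction. The threshold was lost by 22 and gained by 7. The 585 include the values of Plpp6, which carried no p, so only their direction was compared and they say nothing about calls. The value of Plpp6 in CMV-miR-29b against the empty vector without TGF-β, 0.0375, also changed sign, to -0.0418 without replicate e of untreated CMV-miR-29b, but it is smaller than the spread between libraries and is counted among those that kept direction.

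With the replicate letter as a block, over the 16 lettered libraries, 1 member (Plpp5) was called for TGF-β averaged over the vectors and 0 in every other comparison tested. For TGF-β the block called 932 genes in empty vector cells and 394 in Col1a1-miR-29b cells, for Col1a1-miR-29b against the empty vector 161 without and 1152 with TGF-β, and for CMV-miR-29b against Col1a1-miR-29b 29 without and 13 with TGF-β. The same 16 libraries without the block gave 1076, 453, 397, 1659, 79 and 39, and all 18 libraries gave 1245, 914, 1327, 2738, 382 and 408. The letters showed little pairing of the libraries over many genes. Over 11216 genes the 36 same-letter pairs had a mean correlation of 0.0155 (lowest -0.135) and the 70 other pairs -0.00811. Of 16 libraries 7 correlated best with their own letter. Such correlations cannot exclude a shared experiment that moved only some genes.

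Depth limits Plpp3 most, at 0 to 30 counts per library.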

Other observations

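Dividing counts by FPKM and library total gave the length that the deposited FPKM imply, over 16 libraries. The median was 1958 bases for Plpp1, 1850 for Plpp2, 3953 for Plpp5 and 3197 for Plpp6, against longest annotated transcripts of 1598, 1654, 2115 and 2859 bases.

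Pseudogenes among the genes most like Plpp6 were at low levels. Gm10268 averaged 2.79 ± 0.379 CPM (SD) in treated CMV-miR-29b cells and 1.70 ± 0.284 in treated empty vector cells, each over 3 libraries. Because Gm10268 was picked by likeness to Plpp6, a difference in this direction is built in. The genes most like Plpp3 by the same measure were Cmc4 (0.769), Ndufaf2 (0.764), Gpr157 (0.764), Mtmr11 (0.736) and Gtpbp4 (0.731), but at 0 to 30 counts of Plpp3 these correlations are no finding.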
